A study of Mus musculus with 6 samples.

Results

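D10Wsu102e is a protein-coding gene on mouse chromosome 10, the counterpart of human NOPCHAP1, a chaperone in the assembly of box C/D small nucleolar ribonucleoproteins. Its piRNA-size reads were all reads of 24 to 32 nt that matched either strand of its longest GENCODE transcript without a mismatch. These came to 87388 distinct sequences and 2438529 reads, or 3.29% of the 74136059 reads of 24 to 32 nt in the series. The gene was singled out for its reads. Among genes other than small RNA genes it ranked 1 by sense reads found in no other of 55450 genes, and 2 by all sense reads. Its levels are therefore a description.

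The series sequenced small RNA of whole testis from C57BL/6 mice, and asked how piRNAs depend on Dnmt3L and on Miwi2. Each of the 6 libraries was made from pooled animals, 7 or 8 mice at 16.5 days post coitum (dpc) and 3 mice at 10 days post partum (dpp). The groups were, at 16.5 dpc, Dnmt3L wildtype (WT) and Dnmt3L knockout (KO), and at 10 dpp the same pair followed by Miwi2 WT and Miwi2 KO. The WT animals were littermates, and the labels name neither the alleles nor a treatment. With 1 library a group there is no spread between replicates, so no p-value is given. All 6-value lists below follow the order of the groups just named.

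piRNAs are small RNAs of germ cells that are loaded into PIWI proteins and silence transposons. In fetal male germ cells they guide MIWI2, a nuclear PIWI protein, to transposons, where DNMT3L, a partner protein of the enzymes that set new DNA methylation, takes part in methylating the DNA. A primary piRNA tends to start with U, and a partner cut from the opposite strand overlaps its 5′ end by 10 nt and carries A at position 10, the pattern called ping-pong. Many piRNAs of the postnatal testis come instead from the sense strand of messenger RNAs, mostly from their 3′ UTRs.

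The libraries held 28701563 to 47232494 reads, and 13.9% to 45.9% of a library had 24 to 32 nt. The Dnmt3L KO library of 10 dpp stood apart: 65.4% of its reads of 24 to 32 nt had exactly 24 nt, against 20.7% to 42.5% in the others. Every comparison of Dnmt3L genotypes at 10 dpp rests on that library and has no value without it. Marker miRNAs of germ cells summed to 47.9 to 562 reads per 1000000 miRNA reads (5 miRNAs). The germ cell sum was 562 and 402 at 16.5 dpc, and 59.7, 47.9, 89.7 and 68.3 at 10 dpp. The 3 miRNAs listed for meiotic and later germ cells summed to 795, 749, 104, 439, 604 and 304. That sum was highest in both libraries of 16.5 dpc, and which cells it stands for here was not tested. The 9 of the X-linked testis cluster summed to 10340, 9398, 48530, 13237, 34598 and 70316. At 10 dpp the sum of the 3 was higher and the X-linked sum lower in Dnmt3L KO than in its WT, and the reverse held in Miwi2 KO. No list of cell type markers was at 0 in any library. In bulk testis, fewer cells of a type and less RNA per cell cannot be told apart. The part of cell makeup in the results below was not tested.

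The transcript, ENSMUST00000020488.8 of ENSMUSG00000020255.8, lies on the plus strand at chr10:83360221-83488505 (GRCm38) and has 4 exons and 123179 nt. Its coding part spans nt 39 to 596, and 122583 nt of 3′ UTR follow from nt 597, nearly all in the last exon of 122802 nt. The RefSeq model of the gene ends at chr10:83368835, which is nt 3509 of the GENCODE transcript. The remaining 119670 nt, or 97.2%, are carried by the GENCODE model alone. Reads were grouped by how many of the 55450 genes held them on either strand: 1 gene (unique), 2 to 9 genes, or 10 or more genes. A shared read may have been made at another gene, and it was counted whole here. Unique means unique among the longest transcripts of these genes, since reads were not searched in the genome. Whether the stretch beyond the RefSeq end, which holds most of the reads, belongs to D10Wsu102e or to a separate transcript was not tested. Every value of the gene as a whole carries that limit.

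The 5 unique sense 5′ ends with the largest mean share over the libraries are shown because they are held by no other gene. All lie beyond the RefSeq 3′ end. Capitals mark T at position 1, which is U in the RNA, and A at position 10.
Unique sense, nt 13424 (chr10:83378750-83378776): Tactgtatatctgcatgccaggggccc
Unique sense, nt 12883 (chr10:83378209-83378233): Tagtaggcagcctggagatctgagg
Unique sense, nt 51364 (chr10:83416690-83416718): TgaatctgcAaaaatgcgctctgctgcct
Unique sense, nt 62576 (chr10:83427902-83427928): Taatactgaggacatggataatagctt
Unique sense, nt 73235 (chr10:83438561-83438589): agacatgtcAgatctacgcccgaggcacc

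The next 4 sequences are antisense reads, on the minus strand, chosen because they carry the differences between ages and genotypes described further on. The capitals mark the same positions, and the nt number is that of the 5′ end on the transcript.
Unique antisense, nt 104467 (chr10:83469767-83469793): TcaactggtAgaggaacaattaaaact
Unique antisense, nt 24110 (chr10:83389411-83389436): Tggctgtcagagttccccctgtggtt
Unique antisense, nt 85268 (chr10:83450569-83450594): TaatagaacAcaaatgccagcccagg
Antisense shared with 30 other genes, nt 55856 (chr10:83421154-83421182): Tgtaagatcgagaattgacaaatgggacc

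The 10 sense hot spots over all reads were all shared sequences, held by 1 to 635 other genes. Printed here are 4 of them, held by 1 to 588. The number of other genes that held each one on either strand is part of its name.
Sense, 588 other genes, nt 121200 (chr10:83486526-83486551): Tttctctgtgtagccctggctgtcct
Sense, 47 other genes, nt 56389 (chr10:83421715-83421743): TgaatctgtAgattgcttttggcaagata
Sense, 3 other genes, nt 105292 (chr10:83470618-83470644): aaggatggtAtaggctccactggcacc
Sense, 1 other gene, nt 21375 (chr10:83386701-83386730): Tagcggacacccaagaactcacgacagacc

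Sense reads of D10Wsu102e were most abundant at 16.5 dpc. Their level was 8727, 9121, 2182, 549, 3024 and 3198 reads per 1000000 (RPM) in the 6 libraries. The order from high to low was both libraries of 16.5 dpc, both Miwi2-line libraries of 10 dpp, then Dnmt3L WT and last Dnmt3L KO at 10 dpp. The unique sense reads were 2039, 2443, 775, 170, 1175 and 976 RPM. They had the same order of ages, with Miwi2 WT above Miwi2 KO. Of all sense reads in the series on this gene, 28.2% were unique. The other sense reads divided into 2464, 3198, 403, 95.1, 608 and 781 RPM shared by 2 to 9 genes, and 4225, 3480, 1004, 283, 1241 and 1440 RPM shared by 10 or more genes.

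Antisense reads were of the same order as sense reads before sharing was considered, and mostly shared. They summed to 6665, 6539, 1672, 1345, 2701 and 13074 RPM. The Miwi2 KO library held the most. Unique antisense reads made up 563, 608, 82.1, 24.1, 90.0 and 103 RPM of this. The antisense share of all reads was 43.3%, 41.8%, 43.4%, 71.0%, 47.2% and 80.3%. Among unique reads it was 21.6%, 19.9%, 9.59%, 12.4%, 7.11% and 9.58%. The unique reads thus leaned to the sense strand in each library, and 10 dpp libraries had a lower antisense share than those of 16.5 dpc.

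**Figure D1:**
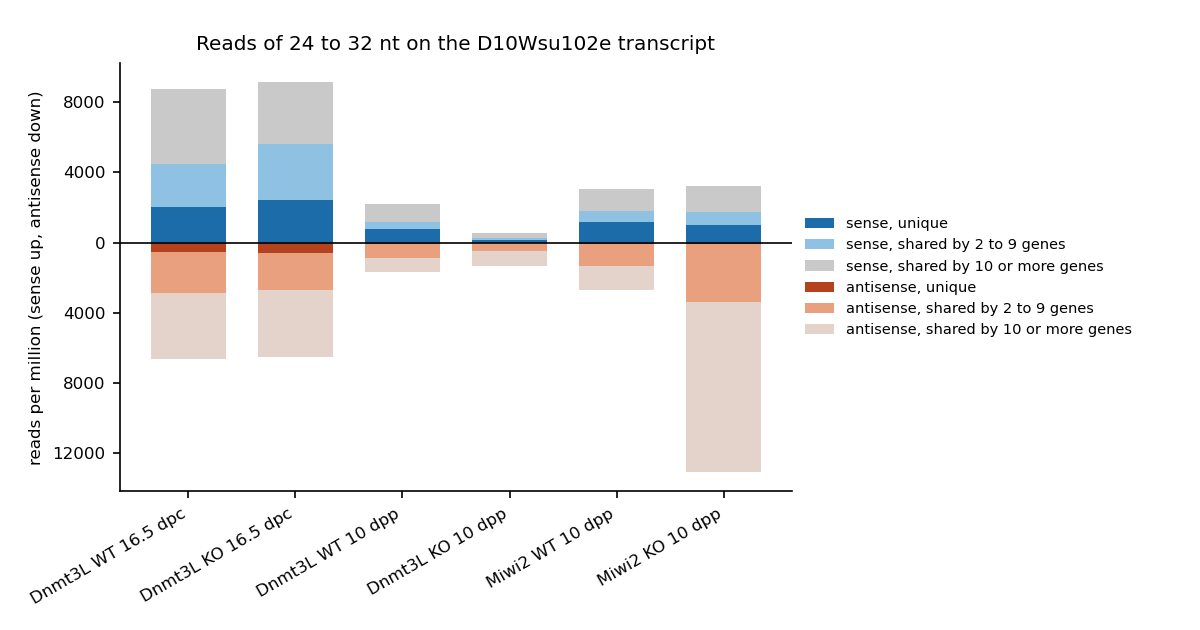
Stacked bars of reads of 24 to 32 nt on the D10Wsu102e transcript, in RPM (vertical axis) for each library (horizontal axis), sense above 0 and antisense below, with 1 library a group and no error bars. Shades are reads unique to the gene, shared by 2 to 9 genes, and shared by 10 or more genes; the antisense bar of the Miwi2 KO library reaches 13074, of which 9667 is shared by 10 or more genes.

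Reads continued past both ends of the size range. Just inside it, sense reads of 24 nt reached 252, 247, 164, 63.7, 191 and 264 RPM. Just outside, those of 23 nt reached 162, 140, 147, 60.6, 155 and 346 RPM. The Miwi2 KO library alone held more reads of 23 nt than of 24 nt. At the upper edge, sense reads of 32 nt were 114, 137, 11.5, 0.244, 77.9 and 106 RPM, and those of 33 nt 90.3, 104, 8.56, 0.348, 41.9 and 113 RPM.

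Per length the gene was not the richest source. Its unique sense level was 16.6, 19.8, 6.29, 1.38, 9.54 and 7.92 RPM per kb. For Tmem38b, which encodes a potassium channel of the endoplasmic reticulum and is another large source of unique reads, it was 190, 84.8, 428, 100.1, 189 and 197 RPM per kb. The large total of D10Wsu102e thus came with a long transcript. Its neighbours on the chromosome gave few unique sense reads over all libraries together: 341 from Chst11, 210 from Slc41a2 and 151 from Washc4. Aldh1l2, which lies on the opposite strand and overlaps the last 1056 nt, gave 0. Among 1851 protein-coding genes with at least 500 unique sense reads, the profiles nearest to that of D10Wsu102e over the 6 libraries were those of Mepce, Hmgn1, Rpl4, Fiz1 and Klhdc3. Their Euclidean distances, from centred log2(RPM + 1) values, were 0.547 to 0.730, and the median over the candidates was 3.29.

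Unique sense reads covered nearly the whole transcript. Of 124 windows of 1 kb, 115 to 123 held more than 3 reads, and 17 to 25 windows held 50% of the reads. The window at 23 to 24 kb was the strongest at 16.5 dpc, with 131 RPM in WT and 194 RPM in KO, against 20.2, 6.72, 31.3 and 21.4 RPM at 10 dpp. The window at 73 to 74 kb had 93.8 and 107 RPM at 16.5 dpc and 10.5, 2.47, 22.6 and 17.8 RPM at 10 dpp. Others differed less between the ages: that at 12 to 13 kb had 25.1, 28.4, 21.6, 5.33, 36.1 and 36.9 RPM. Over the 124 windows, Spearman's rho between the libraries of 16.5 dpc was 0.973, between libraries of 10 dpp 0.843 to 0.915, and between ages 0.533 to 0.779. These correlations describe windows of 1 transcript, which share its sequence and each library's depth.

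Single unique sense 5′ ends did not all divide by age. The unique sense read at nt 13424, whose sequence is given above, had 28.4, 22.2, 9.82, 2.96, 21 and 21.7 RPM. It was present at both ages, as was that at nt 12883, with 13.6, 15.7, 9.80, 2.40, 14.6 and 20.6 RPM. The read at nt 51364 had 34.9, 31.5, 2.02, 0.139, 20.6 and 17.5 RPM. Both Miwi2-line libraries of 10 dpp thus held more of it than both Dnmt3L-line libraries of that age. The read at nt 73235, which starts with A and carries A at position 10, had 58.1, 50.8, 0.604, 0.0348, 1.76 and 1.5 RPM. It was high at 16.5 dpc in both genotypes, and in Dnmt3L KO at 10 dpp it lay under the level of 3 counts (0.105 RPM). That at nt 62576 went the other way, with 1.63, 3.98, 20.8, 3.45, 3.2 and 3.30 RPM. Its high value was in Dnmt3L WT of 10 dpp alone, and the Miwi2 WT library of the same age did not share it. These 5′ ends were ranked by mean share, so differences between libraries were part of how they were chosen. That at nt 73235 had 2.85% and 2.08% of unique sense reads at 16.5 dpc, and at most 0.154% at 10 dpp. That at nt 62576 had 2.69% and 2.03% in the Dnmt3L line at 10 dpp, and at most 0.339% elsewhere. The contrasts are a description.

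**Figure D2:**
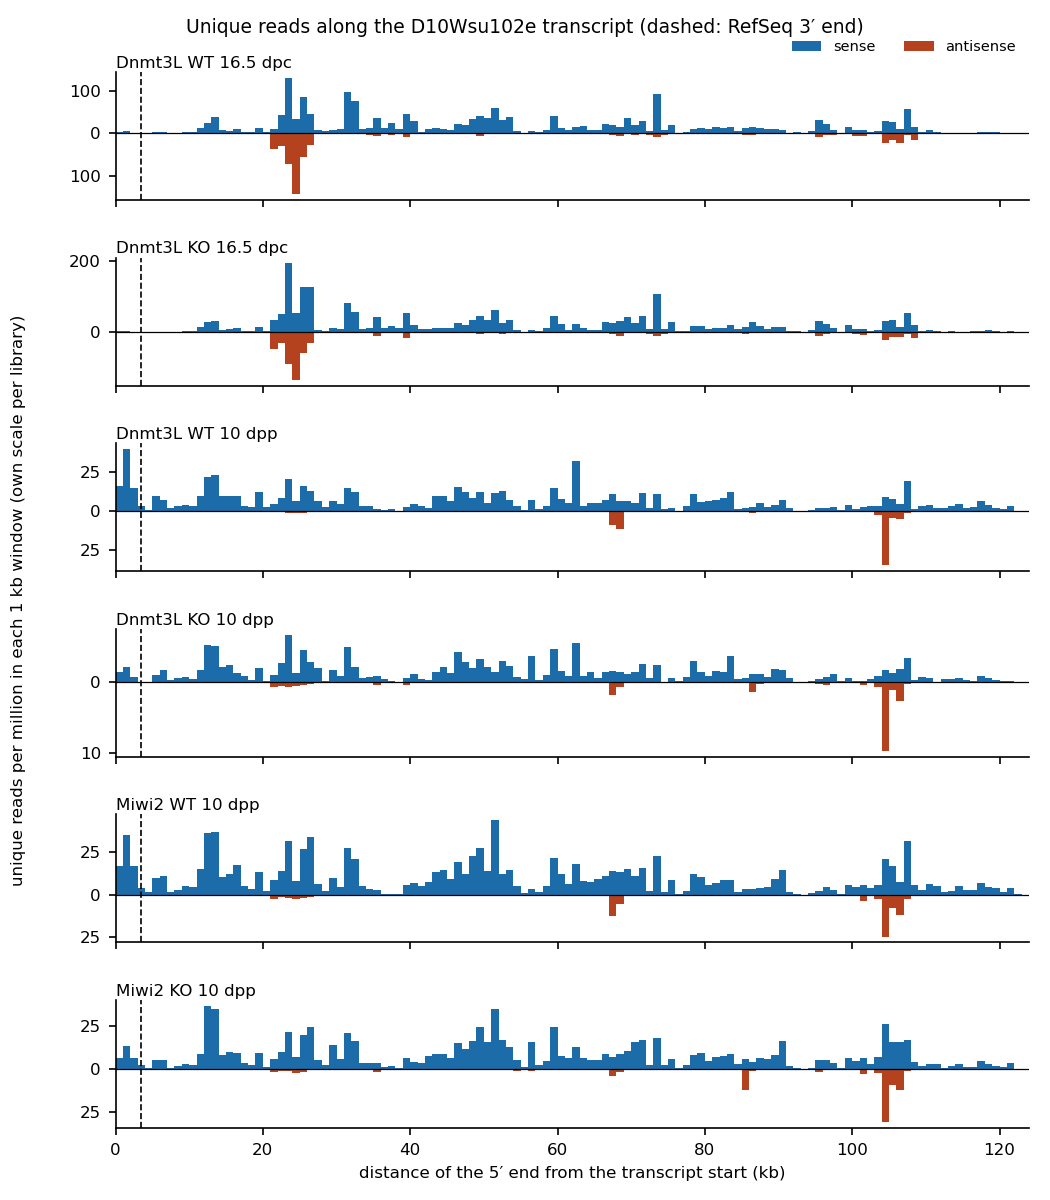
Unique reads of D10Wsu102e in 1 kb windows along the transcript (horizontal axis, kb from its start; vertical axis, RPM, on its own scale in each panel), sense up and antisense down, 1 panel a library; the dashed line is the RefSeq 3′ end. Antisense reads gather at 20 to 30 kb in both libraries of 16.5 dpc and at 100 to 110 kb in the 4 libraries of 10 dpp.

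The transcript differed on each side of the RefSeq 3′ end. Up to nt 3509, unique sense reads were 9.18, 8.30, 71.1, 4.36, 71.1 and 27.6 RPM. These were low at 16.5 dpc and high in both WT libraries of 10 dpp. Beyond it they were 2030, 2435, 703, 166, 1104 and 948 RPM, high at 16.5 dpc. The first stretch is 2.85% of the transcript and held 0.450% (95% exact interval 0.407 to 0.497) of the unique sense reads in Dnmt3L WT at 16.5 dpc and 9.17% (8.85 to 9.51) in Dnmt3L WT at 10 dpp. In Miwi2 WT at 10 dpp the share was 6.05% (5.85 to 6.26). These shares are of unique reads. The 3′ UTR part of that stretch held 8.14% and 4.99% of unique sense reads in Dnmt3L WT and Miwi2 WT at 10 dpp. Of all sense reads, shared ones included, it held 2.89% and 1.94%. A share within a library does not depend on how libraries are scaled. All intervals here cover counting error only, since PCR copies are not independent molecules, and say nothing of the spread between animals.

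Reads of the first stretch also differed in density, first base and length. Per kb the unique sense reads were 2.62, 2.37, 20.2, 1.24, 20.3 and 7.87 RPM, against 17, 20.3, 5.88, 1.39, 9.23 and 7.93 RPM beyond it. No shared sense read started in the first 5 kb. With shared reads counted, the level beyond the RefSeq end was 73.5, 76.8, 17.8, 4.59, 24.9 and 26.7 RPM per kb. By that count the first stretch was denser in Dnmt3L WT at 10 dpp alone. Unique sense reads of the first stretch started with U in 86.9% to 94.1% of cases, and 27.2% to 33.5% had A at position 10. Their most frequent length was 26 nt, or 27 nt in Miwi2 KO. Beyond the RefSeq end, 72.6% to 84.8% started with U and 34.3% to 46.0% had A at position 10. The most frequent length there was 28 nt at 16.5 dpc and 27 nt at 10 dpp. These values pool the whole rest of the transcript, and the RefSeq end was no sharp boundary. At 10 to 20 kb, 86.3% to 91.4% of unique sense reads started with U and 18.1% to 29.8% had A at position 10. At 5 to 10 kb unique sense reads were 9.70, 6.56, 25.5, 4.67, 30.9 and 15.6 RPM. Of 13 stretches of 10 kb, 3 were higher in Dnmt3L WT at 10 dpp than at 16.5 dpc. They were 0 to 10 kb and, at the far end, 110 to 120 kb and 120 to 124 kb. At 10 to 20 kb the level was lower at 10 dpp, with 103 against 119 RPM. Unique antisense reads were absent from the first stretch except for 2 reads in Miwi2 WT.

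The first stretch was 7.74-fold (6.96 to 8.63) higher in Dnmt3L WT at 10 dpp than at 16.5 dpc, while the rest was 0.347-fold (0.342 to 0.351). These opposite directions held when libraries were scaled to miRNA reads, to reads of 24 to 32 nt or by TMM factors. By distinct sequences the rest was higher at 10 dpp, by 0.31 on the log2 scale. Without Dnmt3L at 10 dpp the first stretch was 0.0613-fold (0.0508 to 0.0733) of WT and the rest 0.236-fold (0.228 to 0.243). Under TMM the first stretch stayed lower in the KO, at -1.30 on the log2 scale, and the rest turned to 0.64 higher. Without Miwi2 the first stretch was 0.389-fold (0.362 to 0.417) of WT and the rest 0.859-fold (0.847 to 0.871). The latter turned to 0.089 higher on the log2 scale under TMM and 0.092 higher by distinct sequences. At 16.5 dpc without Dnmt3L the values were 0.904-fold (0.784 to 1.04) and 1.2-fold (1.19 to 1.21). The interval of the first spans no difference, and its direction turned when scaled to miRNA reads (0.047 on the log2 scale).

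**Figure D3:**
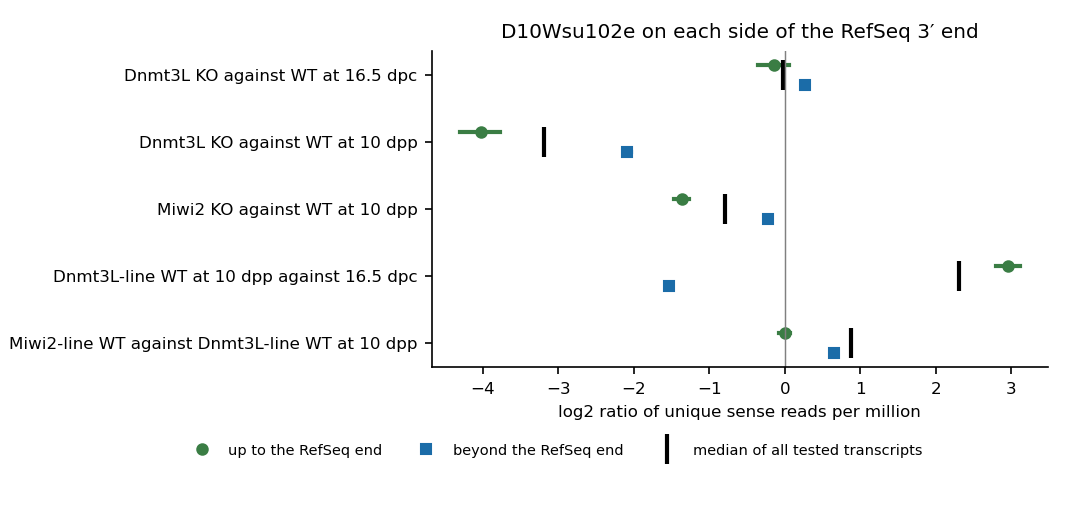
Log2 ratios of unique sense RPM (horizontal axis) for 5 comparisons (rows), up to the RefSeq 3′ end (circles) and beyond it (squares), with 95% exact intervals that cover counting error only and are narrower than the squares; the vertical bars are the median over all transcripts compared. In the comparison of ages the circle lies at 2.95 and the square at -1.53, which by distinct sequences turned to 0.31.

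The ratios of the gene were set beside those of all transcripts. A ratio was called when its absolute log2 value was above the 95th percentile between both WT libraries of 10 dpp, over transcripts with at least 500 reads in the libraries compared. This limit was 2.20 for all sense reads, 1.88 for unique sense reads and 2.31 for antisense reads.

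Dnmt3L KO against WT at 16.5 dpc left the gene near its WT level. Sense reads were 1.05-fold (1.04 to 1.05), and 0.135% of the transcripts compared were called. Scaled to reads of 24 to 32 nt the gene was 0.056 lower on the log2 scale, and by distinct sequences 0.046 lower. Of those transcripts 0.115% were called higher and 0.0192% lower, or 0.289% and 0.192% under TMM. Scaled to miRNA reads, 0.0192% were called, all lower. Unique sense reads were 1.2-fold (1.19 to 1.21), with 0.187% called. Antisense reads were 0.981-fold (0.976 to 0.986), with 0.251% called, and turned higher by 0.17 on the log2 scale when scaled to miRNA reads and by 0.016 under TMM. None of these ratios of D10Wsu102e was called. At 20 to 30 kb, however, unique sense reads were 373 RPM in WT and 615 RPM in KO, or 1.65-fold (1.62 to 1.68). Over all 13 stretches of 10 kb the ratio ran from 0.809 to 1.93 and was above 1 in 10.

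Dnmt3L KO against WT at 10 dpp gave the lowest sense level of the series. All sense reads were 0.251-fold (0.247 to 0.256) of WT, a log2 ratio of -1.99 that was not called. The median over transcripts was -2.96, and 73.7% were called, 73.6% lower and 0.119% higher. Under TMM, which moved that median to -0.24, the gene turned to 0.73 higher, and the calls became 0.834% lower and 9.02% higher. Unique sense reads were 0.220-fold (0.213 to 0.226), a log2 ratio of -2.19 that was called lower but was 0.54 higher under TMM. Scaled to miRNA reads it was -2.42, under the limit of 2.57 for that scaling. Among unique reads 94.9% of transcripts were called and the median was -3.19, so the gene lay above most transcripts: 90.3% had lower ratios. All 13 stretches of 10 kb were lower in the KO, at 0.0889-fold to 0.302-fold.

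Length moved with that ratio. Unique sense reads of 26 nt were 0.260-fold of WT, those of 28 nt 0.184-fold, those of 29 nt 0.0673-fold and those of 30 nt 0.0442-fold. The KO library as a whole was short, with 0.493% of its reads of 24 to 32 nt at 29 nt against 3.07% in WT. The part of this difference between libraries in the ratio of the gene was not tested. Antisense reads were 0.804-fold (0.794 to 0.815), and 72.1% of transcripts were called. Their direction turned to 0.19 higher when scaled to reads of 24 to 32 nt, to 2.18 higher under TMM and to 0.77 higher by distinct sequences. Unique antisense reads were 0.294-fold (0.270 to 0.319), while those shared by 10 or more genes were 1.07-fold (1.06 to 1.09).

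Miwi2 KO against WT at 10 dpp left sense reads near WT, and shared antisense reads were higher in the KO. Sense reads were 1.06-fold (1.05 to 1.07), with 4.27% of transcripts called. Unique sense reads were 0.831-fold (0.819 to 0.842), a log2 ratio of -0.27 that turned to 0.041 under TMM, with 3.23% called. Antisense reads were 2701 RPM in WT and 13074 RPM in KO, or 4.84-fold (4.81 to 4.87), and 4.08% of transcripts were called. The log2 ratio of 2.27 lay just under the limit of 2.31. It was called when scaled to reads of 24 to 32 nt, under TMM and for reads of 24 to 28 nt. The ratio grew with sharing: 1.15-fold (1.10 to 1.20) for unique reads, 2.69-fold (2.66 to 2.71) for those of 2 to 9 genes, and 7.00-fold (6.94 to 7.06) for those of 10 or more genes.

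The shared antisense reads sat in narrow blocks. At 50 to 60 kb they were 2941, 2993, 625, 725, 1142 and 8724 RPM, and the Miwi2 KO was 7.64-fold (7.57 to 7.71) of its WT. At 100 to 110 kb they were 2040, 1761, 807, 507, 1243 and 3580 RPM, and the ratio was 2.88-fold (2.85 to 2.91). The window at 55 to 56 kb alone had 371 RPM in Miwi2 WT and 3548 RPM in Miwi2 KO. Outside these blocks, each stretch of 10 kb held at most 50.8 RPM in Miwi2 WT. The Miwi2 KO held 399 RPM at 80 to 90 kb, 7.85-fold (7.51 to 8.21) of its WT, and 92.9 RPM at 20 to 30 kb, 1.9-fold (1.8 to 2.0).

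The antisense read at nt 55856 had 627, 359, 24.1, 26.8, 111 and 862 RPM, or 7.73-fold in Miwi2 KO over WT. It was high at 16.5 dpc in both genotypes, and at 10 dpp in Miwi2 KO. Reads that start 2 nt further in, at nt 55854, had 103, 124, 107, 115, 50.9 and 594 RPM, or 11.7-fold. The most read sequences of both starts end at the same base. Reads at nt 55854 differed from those at nt 55856 at 10 dpp, where both Dnmt3L libraries held them at levels close to those of 16.5 dpc. Of the 5 strongest antisense 5′ ends, Gm47164 held 4 as sense reads, Gm37158 held 2 of these 4, and Noct, which encodes the circadian phosphatase nocturnin, held the fifth. All sense reads of Gm47164 were 1408 RPM in Miwi2 WT and 12517 RPM in Miwi2 KO. For Gm37158 they were 1147 and 12618 RPM, and for Noct 1550 and 10771 RPM, so each was higher in the KO. Which of these genes, or of others not looked at, made the shared reads cannot be told apart here.

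**Figure D4:**
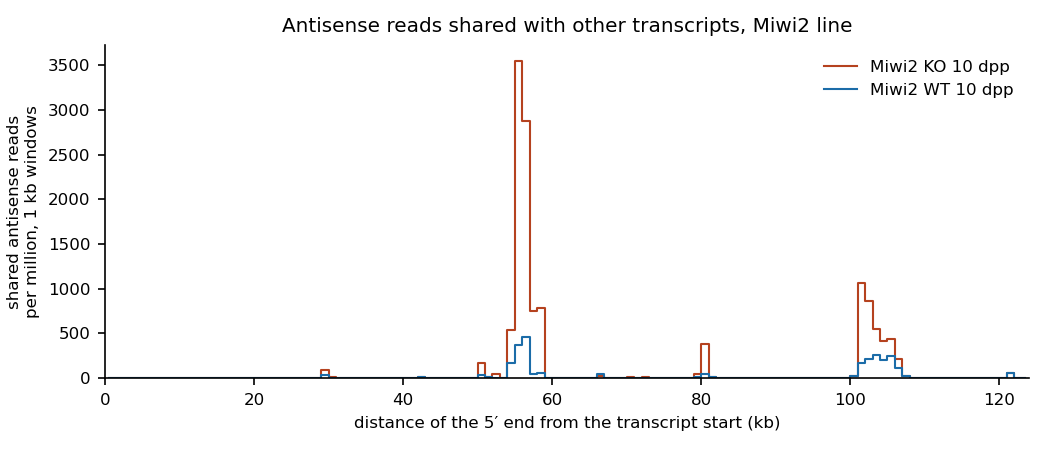
Antisense reads of D10Wsu102e shared with at least 1 other gene, in RPM per 1 kb window (vertical axis) along the transcript (horizontal axis, kb from its start), for Miwi2 WT and KO at 10 dpp, 1 library each. The KO line rises above the WT line at 54 to 59 kb and the start of the 100 to 110 kb stretch, with 3548 against 371 RPM at 55 to 56 kb.

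Of the 5 strongest unique antisense 5′ ends, that at nt 85268 had the largest ratio of Miwi2 KO to WT. It was among the 5 through Miwi2 KO, where its share of unique antisense reads was 11.9%, against at most 0.704% elsewhere. A high ratio was thus part of how it was chosen, and the ratio is a description. The read at nt 85268 had 3.33, 4.28, 0, 0, 0.355 and 12.3 RPM, from 141, 202, 0, 0, 16 and 459 reads. It was present at 16.5 dpc, under the level of 3 counts in both Dnmt3L libraries of 10 dpp, and 33.7-fold higher in Miwi2 KO than in its WT. In the stretch at 80 to 90 kb unique antisense reads were 1.64 RPM in Miwi2 WT and 14.6 RPM in Miwi2 KO, or 8.88-fold (6.96 to 11.5). This read was most of that level in Miwi2 KO, but not in its WT. At 60 to 70 kb the ratio went the other way, at 0.333-fold (0.287 to 0.386).

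The main place of unique antisense reads differed between the ages. At 20 to 30 kb they were 363, 390, 5.88, 2.82, 11.6 and 9.73 RPM, which was 64.4% and 64.2% of the unique antisense reads at 16.5 dpc and 7.16% to 12.9% at 10 dpp. At 100 to 110 kb they were 93.1, 88.4, 49.2, 15, 52.6 and 59.4 RPM, or 16.5% and 14.6% at 16.5 dpc and 57.5% to 62.0% at 10 dpp. Reads with their 5′ end at nt 24110 had 59.0, 35.4, 0.236, 0.209, 0.644 and 0.699 RPM. Those with their 5′ end at nt 104467 had 0.448, 2.82, 22.1, 4.56, 7.73 and 5.40 RPM. The former were higher in both libraries of 16.5 dpc and the latter in all 4 of 10 dpp. Each was among the 5 strongest unique antisense 5′ ends through the age at which its share was high. The difference between ages was thus part of how each was chosen, and it is a description.

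Dnmt3L-line WT at 10 dpp against 16.5 dpc gave ratios of 0.250 (0.248 to 0.252) for all sense reads, 0.380 (0.375 to 0.385) for unique sense reads and 0.251 (0.249 to 0.253) for antisense reads. By distinct sequences the first turned to 0.10 higher on the log2 scale. Transcripts called came to 33.9%, 77.6% and 32.6% in that order. Of all sense reads, 10.4% of transcripts were called higher and 23.5% lower, against 22.3% and 28% under TMM and 1.91% and 31.5% when scaled to miRNA reads. The median log2 ratio of unique sense reads over all transcripts was 2.31, whereas that of D10Wsu102e was -1.40. The gene was not called, although all its sense reads were past the limit under TMM and when scaled to miRNA reads, and 24.2% of transcripts lay below it. The Miwi2-line WT had 1.39-fold (1.37 to 1.40) the sense level of the Dnmt3L-line WT of the same age, against a median log2 ratio of 0.89 over transcripts. The gene was 0.039 lower on the log2 scale when these libraries were scaled to reads of 24 to 32 nt and 0.43 lower under TMM.

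Most unique reads of both strands started with U, as primary piRNAs tend to. The reads had been chosen by length beforehand, so their length cannot tell whether they are piRNAs. U was the first base of 73.5%, 72.6%, 85.7%, 82.6%, 81.1% and 78.4% of unique sense reads, against 29.2% U in the transcript. A stood at position 10 in 45.9%, 45.1%, 34.2%, 36.0%, 36.5% and 39.1% of them, against 26% A in the transcript. Among unique sense reads without a first U, A at position 10 was more frequent: 67.7%, 66.3%, 51.8%, 50%, 50.5% and 54.8%. Unique antisense reads had U first in 64.6% to 84.3% and A at position 10 in 41.2% to 65.2%. The most frequent length of unique reads was 28 nt at 16.5 dpc and 27 nt at 10 dpp, on both strands. Reads of 27 to 32 nt were 74.1% and 75.9% of unique sense reads at 16.5 dpc, 60.8% and 52.1% in the Dnmt3L line at 10 dpp, and 72.5% and 75.9% in the Miwi2 line.

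Opposite-strand reads overlapped by 10 nt more often than by any other length from 1 to 20 nt, when distinct pairs were counted. Over all reads the share of 10 nt was 6.28%, 6.00%, 7.22%, 7.60%, 7.17% and 6.54%, and the next highest share was 5.36% to 5.54%. With unique reads it was 7.57%, 6.82%, 8.88%, 11.6%, 8.25% and 9.55%. The latter rest on 5863, 9309, 766, 173, 873 and 880 pairs, so the values at 10 dpp have wide intervals, such as 7.21% to 17.3% in Dnmt3L KO. Weighted by reads, the share was 18.0% to 36.2% over all reads and 6.34% to 17.2% over unique reads. In the latter count, 10 nt ranked 3 in Dnmt3L KO and in Miwi2 WT at 10 dpp and 1 in the other libraries. For shared reads at 16.5 dpc, 20 nt was the most frequent by distinct pairs, at 5.92% against 5.90% in WT and 5.91% against 5.58% in KO.

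The reads that had a 10 nt partner were unevenly divided between the strands. Of unique antisense reads, 36.6%, 53.7%, 43.3%, 3.90%, 22.8% and 25% had one. Of unique sense reads, 8.4%, 12.2%, 1.95%, 0.771%, 2.33% and 3.21% did. The share of sense reads was thus higher at 16.5 dpc than at 10 dpp in these libraries. Unique antisense reads also had more 5′ end positions to pair with at 16.5 dpc: 1826, 2327, 414, 221, 451 and 525 in the 6 libraries. Unique sense reads had 7673, 9947, 5461, 2012, 5801 and 4820 such positions, more than the antisense reads in each library. The part of these numbers in the shares, between strands and between ages, was not tested. Distances from a 3′ end to the next 5′ end on the same strand, which phased cutting would place at 1 nt, were at 1 nt in 2.04% to 5.0% of cases for unique sense reads. A larger share stood at another distance in each library. Over all sense reads, shared ones included, the share at 1 nt was 15.2%, 10.6%, 11.3%, 6.95%, 12.2% and 10.5%. It was the largest in each library except Dnmt3L KO at 10 dpp. These shares are weighted by reads, and by distinct pairs those of all sense reads were 4.65% to 5.14%. For unique antisense reads 1 nt led in Dnmt3L WT at 10 dpp alone, at 19.6%, and for all antisense reads in no library.

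**Figure D5:**
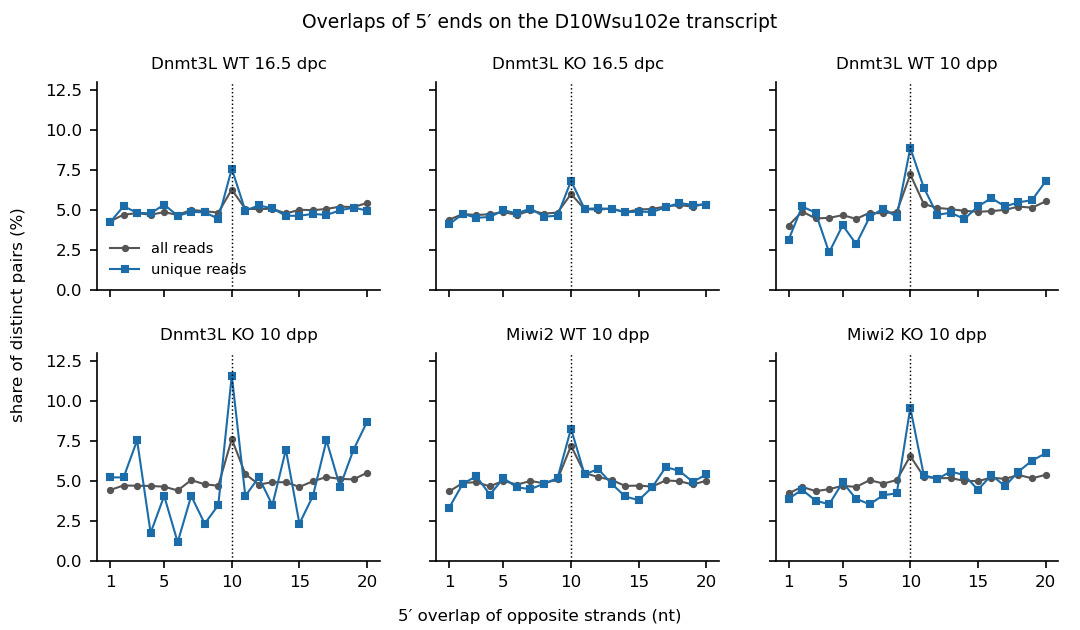
Share of distinct opposite-strand pairs on D10Wsu102e (vertical axis, percent) at each 5′ overlap from 1 to 20 nt (horizontal axis), 1 panel a library, for all reads (circles) and unique reads (squares). Each panel has its highest point at 10 nt, from 6.00% to 7.60% for all reads and 6.82% to 11.6% for unique reads.

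Some of the most abundant pairs show the overlap itself, in capitals, which is the reverse complement between the members of a pair. The first is the pair with the most reads of all, which are shared. The other 2 are the first and the second among pairs of reads unique to the gene, and hold far fewer reads.
Shared pair, sense, nt 101976: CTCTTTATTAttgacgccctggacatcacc
Shared pair, antisense, nt 101985: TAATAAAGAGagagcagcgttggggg
Unique pair, sense, nt 105653: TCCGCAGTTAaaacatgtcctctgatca
Unique pair, antisense, nt 105662: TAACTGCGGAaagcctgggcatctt
Unique pair, sense, nt 25372: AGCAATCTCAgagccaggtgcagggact
Unique pair, antisense, nt 25381: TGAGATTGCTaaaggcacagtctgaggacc

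The shared pair spans chr10:83467286-83467331. Its sense read had 31.5, 244, 5.25, 2.47, 6.55 and 21.2 RPM, and its antisense read 18.1, 35.3, 2.36, 9.23, 6.02 and 210 RPM. The sense read was highest in Dnmt3L KO at 16.5 dpc and the antisense read in Miwi2 KO, so the strands of 1 pair did not peak in the same library. In the unique pair at nt 105653 (chr10:83470964-83471006) the antisense read was the more abundant, at 2.78, 3.77, 0.683, 0.139, 2.60 and 1.83 RPM. The sense read of the unique pair at nt 25372 (chr10:83390678-83390725) had 0.779, 2.05, 0, 0, 0.4 and 0.134 RPM. Its antisense partner had 2.83 and 1.88 RPM at 16.5 dpc and was at 0 in all 4 libraries of 10 dpp.

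The most abundant shared sense 5′ ends each varied in their own way. The most abundant, at nt 121200, had 140, 89.7, 154, 19.9, 255 and 128 RPM, and it also lies in a gene annotated as a small RNA. It was the one printed here that was higher in both WT libraries of 10 dpp than at 16.5 dpc. The read at nt 56389 had 296, 61.9, 53.2, 6.06, 44.6 and 21 RPM, highest in Dnmt3L WT at 16.5 dpc. The read at nt 21375, held by 1 other gene, had 8.90, 129, 6.57, 1.39, 47.4 and 40.1 RPM. It was much higher in Dnmt3L KO than in WT at 16.5 dpc, unlike the gene as a whole. Last, the read at nt 105292 had 99.4, 151, 12.1, 1.64, 51.5 and 36.2 RPM, with a first base other than U and A at position 10.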

How the data were processed

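Small RNA (18 to 35 nt, Trizol, Illumina TruSeq, per the labels' protocols) of 6 pooled testis libraries was analysed. The authors deposited, for each library, read sequences with the raw count of reads of exactly that sequence, without a header. The submitters' processing notes name mm9, and for trimming and aligner nothing is given in the sources used here. Printed coordinates are on GRCm38, from GENCODE vM21; the RefSeq 3′ end is from GRCm38.p6.

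Reads of 24 to 32 nt were matched without mismatch, on either strand, to 1 transcript (the longest) of each of 55450 genes, and scaled to 1000000 reads of the library (RPM). A read at several positions of the transcript was divided over them in profiles. Library totals were 42370622, 47232494, 38069968, 28701563, 45010155 and 37218684 reads, so 3 counts were 0.0635 to 0.105 RPM. Intervals are 95% exact binomial or Poisson intervals. With 1 library a group no test was run: log2 ratios, with 0.5 added to each count, were called by size as the report states, over transcripts of genes other than small RNA genes. TMM factors came from edgeR 4.0.16 (R 4.3.3), and the rest from Python 3.11.15, numpy 2.4.6, pandas 2.3.3 and scipy 1.17.1. Matching and calling were tested on simulated data. Alternatives were other scalings, read minimums of 10 and 100, length ranges, and distinct, unique, divided or thinned reads.

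The gene, the lists and the rules were chosen with earlier results of these data known. The rule for named items took the gene, the 10 transcripts with the most sense reads, Tmem38b, Noct, its neighbours, the 5 nearest profiles, a list of RNA end genes, and the 10 sense and 5 antisense 5′ ends with the largest mean share. Unique 5′ ends, stretches of the transcript and unique pairs were added after the values were seen. Repeat families were not analysed here.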

Additional observations from a re-analysis of the deposited data

Results flagged for a closer look

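The Dnmt3L KO against WT at 10 dpp and at 16.5 dpc went in opposite directions for 3 measures of D10Wsu102e. The log2 ratio at 10 dpp minus that at 16.5 dpc was -2.06 for all sense reads, -2.45 for unique sense reads and -1.88 for unique antisense reads. With 1 library a group these differences were not tested. The median log2 ratio over transcripts was -0.046 at 16.5 dpc and -2.96 at 10 dpp for all sense reads, and -0.025 and -3.19 for unique sense reads. By all sense reads 60.8% and 78.2% of transcripts lay below the gene. Its direction in these reads reversed at 16.5 dpc by distinct sequences and when scaled to reads of 24 to 32 nt. At 10 dpp both sense measures reversed under TMM. All 3 rest on the Dnmt3L KO library of 10 dpp, in which 65.4% of the reads of 24 to 32 nt had 24 nt, and the part of that in the differences was not tested.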

How the results depend on the processing

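No paired analysis was possible because each group is 1 library without a replicate number. For the log2 ratio of all sense reads, the value reversed at 16.5 dpc in Dnmt3L KO (24 to 32 nt scaling -0.056, distinct sequences -0.046), at 10 dpp in Dnmt3L KO (TMM 0.73), in Miwi2 KO (unique reads -0.27, divided reads -0.16), with age (distinct sequences 0.10) and between the WT lines (24 to 32 nt scaling -0.039, TMM -0.43, distinct sequences -0.75). It passed the limit in Dnmt3L KO at 10 dpp (unique reads -2.19, divided reads -2.18) and with age (miRNA scaling -3.12, TMM -1.61). Alternatives for unique sense and antisense ratios were chosen after seeing the data. Unique sense reads reversed under TMM in Dnmt3L KO at 10 dpp (0.54), Miwi2 KO (0.041) and between the WT lines (-0.30), and in Dnmt3L KO at 10 dpp miRNA scaling gave -2.42, no longer past its limit. Antisense reads reversed in Dnmt3L KO at 16.5 dpc (miRNA scaling 0.17, TMM 0.016, unique reads 0.11), in Dnmt3L KO at 10 dpp (24 to 32 nt scaling 0.19, TMM 2.18, distinct sequences 0.77) and between the WT lines (TMM -0.39, distinct sequences -0.72). They passed the limit in Miwi2 KO (24 to 32 nt scaling 2.27, TMM 2.62, 24 to 28 nt 2.21) and with age (miRNA scaling -3.11, divided reads -2.01). The share of transcripts called moved at 16.5 dpc from 0.135% to 2.76% (minimum of 10 reads), 0.481% (TMM) and 0.0192% (miRNA scaling), in Dnmt3L KO at 10 dpp from 73.7% to 34.8% (minimum of 10 reads) and 9.85% (TMM), and in Miwi2 KO from 4.27% to 2.56% (minimum of 100 reads), 7.55% (TMM) and 2.38% (miRNA scaling). The cause was not tested. The other ratios kept direction and call in 37 sense, 11 unique sense and 32 antisense alternatives. The antisense share ran from 41.8% to 80.3% by reads, 30% to 44.3% by distinct sequences and 7.11% to 21.6% by unique reads. Depth limits single positions at 10 dpp, where 0.0667 to 0.105 RPM is 3 counts.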

Other observations

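A list of 15 genes of RNA ligation and RNA end repair had been drawn up under a mistaken identification of D10Wsu102e and is reported once. All 15 of 15 were found, with 21 to 762 unique sense reads over all libraries, and 1 had at least 500. Reads that also lie in small RNA genes were 4.18% to 17% of the sense reads of D10Wsu102e and 0.800% to 3.59% of its antisense reads. Of its sequences, 339 matched both strands.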
